A study of Rattus norvegicus with 8 samples.

Results

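The regions described here are all the tiled stretches in a 4.5 Mb window of rat chromosome 3 that starts at 69 Mb (build rn4) and carries the working name of an olfactory receptor cluster window. They were found by position alone: every probe lying wholly inside the window was taken, and probes with gaps of at most 500 bp were joined into a run. This gave 2503 probes in 174 runs, of 375449 probes and 27740 runs on the whole array. Of the 174 runs, 159 held at least 3 probes and were tested, and the other 15 held 1 or 2. DNA methylation was measured in the prefrontal cortex of 4 control (Ctrl) and 4 prenatally stressed (PNS) Sprague-Dawley rats, all male and at postnatal day 62, with 1 male taken per litter. The PNS dams had been restrained under bright light repeatedly each day over the final week of pregnancy, and the Ctrl dams were not disturbed. The arrays carry no gene names, so the name of the window and the gene of any run could not be checked here, and runs are given by coordinates. The first probe started at position 69020955 and the last ended at 73452857.

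Methylated DNA was pulled down with an antibody against 5-methylcytosine (MeDIP). The pulled-down (bound) DNA, labeled with Cy5, was hybridized with unselected (input) DNA, labeled with Cy3, after whole-genome amplification of both. A level in this text is the log2 ratio of bound over input minus the median of all probes on the same array, so that 0 is the median probe and a negative level means less enrichment than that. Each slide held a Ctrl rat at array position 1 and a PNS rat at position 2, so that position and group cannot be told apart. The Ctrl rats C180, C182, C184 and C185 were on slides 1 to 4 in that order, as were the PNS rats C141, C142, C144 and C145. Before normalization the log ratios spread less on the arrays of C180, C182 and C141 (SD 0.611 to 0.704) than on the other 5 arrays (SD 0.986 to 1.22). In bulk tissue a ratio is an average over all cell types present.

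Olfactory receptors are odorant-sensing proteins of the nasal epithelium. Their genes lie in long clusters of similar copies, and each sensory neuron uses a single one of them while the rest are kept silent in heterochromatin. In cortex the clusters are not known for activity. Promoters of these genes are poor in CpG, the dinucleotide that carries most methylation in mammals, and MeDIP enrichment rises with the number of methylated CpGs on a fragment as well as with the share of them that is methylated.

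Runs were packed closely in the window. There were 38.7 runs per Mb, against 13.3 in the 4.5 Mb before it and 25.3 in the 4.5 Mb after it. A tested run spanned a median of 1118 bp (1123 bp over the array) and held a median of 16 probes (13 over the array). The gap between neighbouring runs had a median of 18.3 kb and ranged from 0.516 to 128 kb. The probes themselves stood apart from the rest of the array. Of the window's probes 93.2% had the full length of 60 bases, against 42.0% of all probes, and on designs of this kind shorter probes are placed where the DNA is rich in G and C. All probes had 60 bases in 72 of the 159 tested runs (45.3%), compared with 4.61% of tested runs over the array. Moreover, 45.4% of window probes were printed on 2 spots, against 10.5% of all probes.

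Few of these probes gave a bright signal. Arrays are not counted in reads, so the precision behind a value was judged from how many spots rose well above background. In the window 11.1 to 18.2% of probes were well above background in the input channel, depending on the rat, whereas 60.9 to 72.7% were over the whole array. In the bound channel the share was 3.76 to 13.5% in the window and 43.7 to 67.0% over the array. Probes of 60 bases outside the window lay in between, at 23.6 to 42.1% in the input channel. Input was bright on all 8 arrays for 219 window probes (8.75%, against 57.5% of all probes) and on none of them for 1831 (73.2%, against 22.7%). The 219 included 122 of the 170 window probes shorter than 60 bases and 97 of the 2333 with 60 bases. They lay in 104 runs, 28 of which held at least 3.

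**Figure D1:**
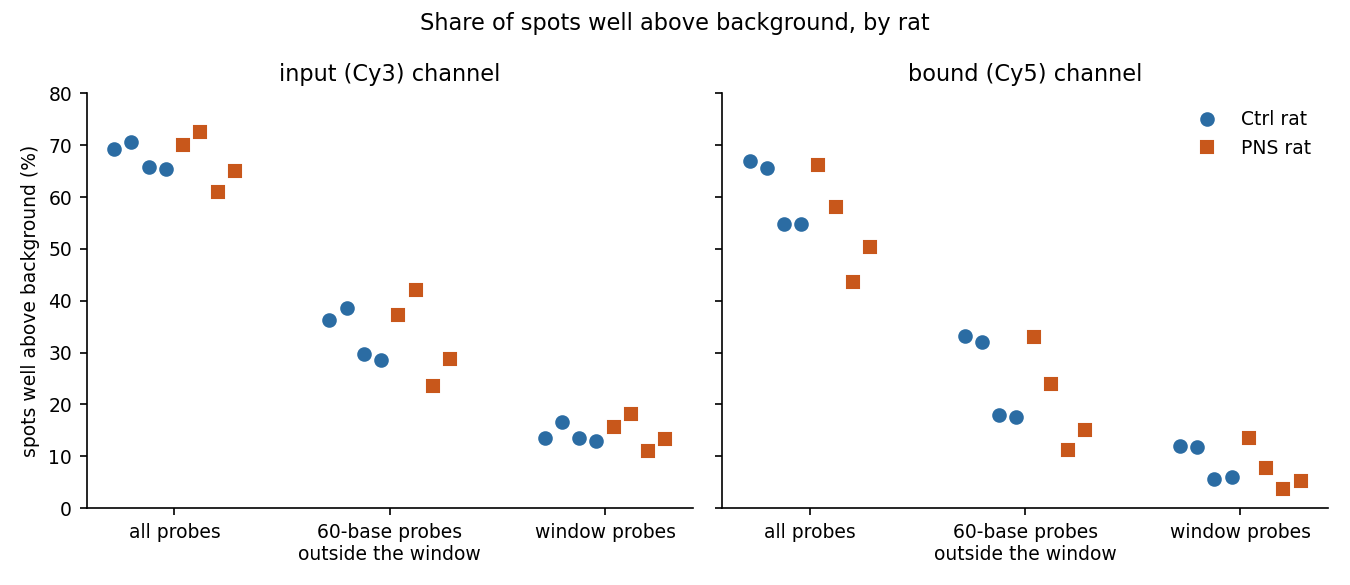
Share of probe spots well above background (%, vertical axis) in the input and the bound channel, for all probes, for probes of 60 bases outside the window and for window probes. Each point is 1 rat (circles Ctrl, squares PNS); in all 8 rats the window share, 11.1 to 18.2% in the input channel, lies below both other sets.

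The dim probes bear on how a level can be read. Where a spot is not above its local background in either channel, the software writes a small stand-in signal to both channels, and their ratio says nothing of methylation. Between 22.5 and 32.9% of window probes were in this state on a given array, compared with 6.65 to 11.0% of all probes. Their median level in the window was 0.03 in C180 and 0.24 to 0.45 in the other 7 rats, within 0.01 of the same median over the whole array in each rat. For window probes above background in both channels the median level was below 0 in all 8 rats, from -0.47 in C182 to -0.17 in C141. Over the whole array the same median was below 0 too in every rat but C180, though nearer to it. There it ran from -0.08 in C144 to -0.03 in C141, with 0.16 in C180. The 2 spots of a repeated window probe correlated at 0.156 to 0.545 within an array (1133 probes), and those of repeated probes elsewhere at 0.464 to 0.825 (38139 probes). The correlation of a rat's window probes with those of the other 7 averaged 0.14 to 0.40, against 0.34 to 0.61 over the array. For probes of 60 bases outside the window it averaged 0.21 to 0.45, nearer to the window. These correlations are across probes, which are not independent replicates.

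Run levels were compared with the array median in all 8 rats. Of the 159 tested runs, 33 (20.8%) were lower than the array median and 6 (3.77%) were higher at an adjusted p of at most 0.05 in limma. The other 120 were not called in either direction. Over the whole array 42.1% of runs were lower and 22.5% were higher by the same rule. With the median of a run's probes in place of the mean the balance turned, with 8 runs lower and 32 higher (33.2% and 25.3% over the array). The window's run levels ranged from -1.07 to 0.38 with a median of -0.09, and the median over all runs was -0.14. They were also bunched closely together, with an SD of 0.182 across runs against 0.520 for the array. Runs made only of 60-base probes outside the window (1109 runs) had a median of -0.07 and an SD of 0.280. In just 6 of the window's runs were at least 50% of the input spots bright.

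Probes of bright input lay lower. Input is the denominator of the ratio, so a choice of bright input bears on the level itself, and its part in these values was not tested. In the 219 with bright input on all 8 arrays the median level was -0.55, compared with -0.11 for the 215690 such probes of the whole array. By rat, the median was -0.10, -0.47, -0.84 and -0.78 in Ctrl and -0.05, -0.58, -0.79 and -0.80 in PNS, each in slide order. It was thus below 0 in every rat, and nearest to 0 in C180 and C141, 2 of the 3 arrays with little spread. Of the 219, 62 lay below 0 in all 8 rats (28.3%, against 17.5% over the array) and 7 lay above 0 in all 8 (3.20%, against 20.7%). In the 28 runs with at least 3 bright probes, the level of those probes alone was lower than the array median in 18 and higher in 1 (limma, adjusted p of at most 0.05). Over the array 44.9% of the runs with at least 3 bright probes were lower and 26.7% were higher. In 27 of the 28 the fitted level was below 0, and their median was -0.53. The median over such runs of the whole array was also below 0, at -0.19. When both channels had to be above local background on all 8 arrays, 206 window probes were left with a median level of -0.34 (-0.02 for such probes over the array). Their median was above 0 in C180 (0.15) and C141 (0.10) and from -0.60 to -0.28 in the other 6 rats. These formed 21 runs of at least 3 probes, of which 11 were lower and 1 was higher (38.6% and 27.7% over the array), by an alternative chosen after the data had been seen.

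**Figure D2:**
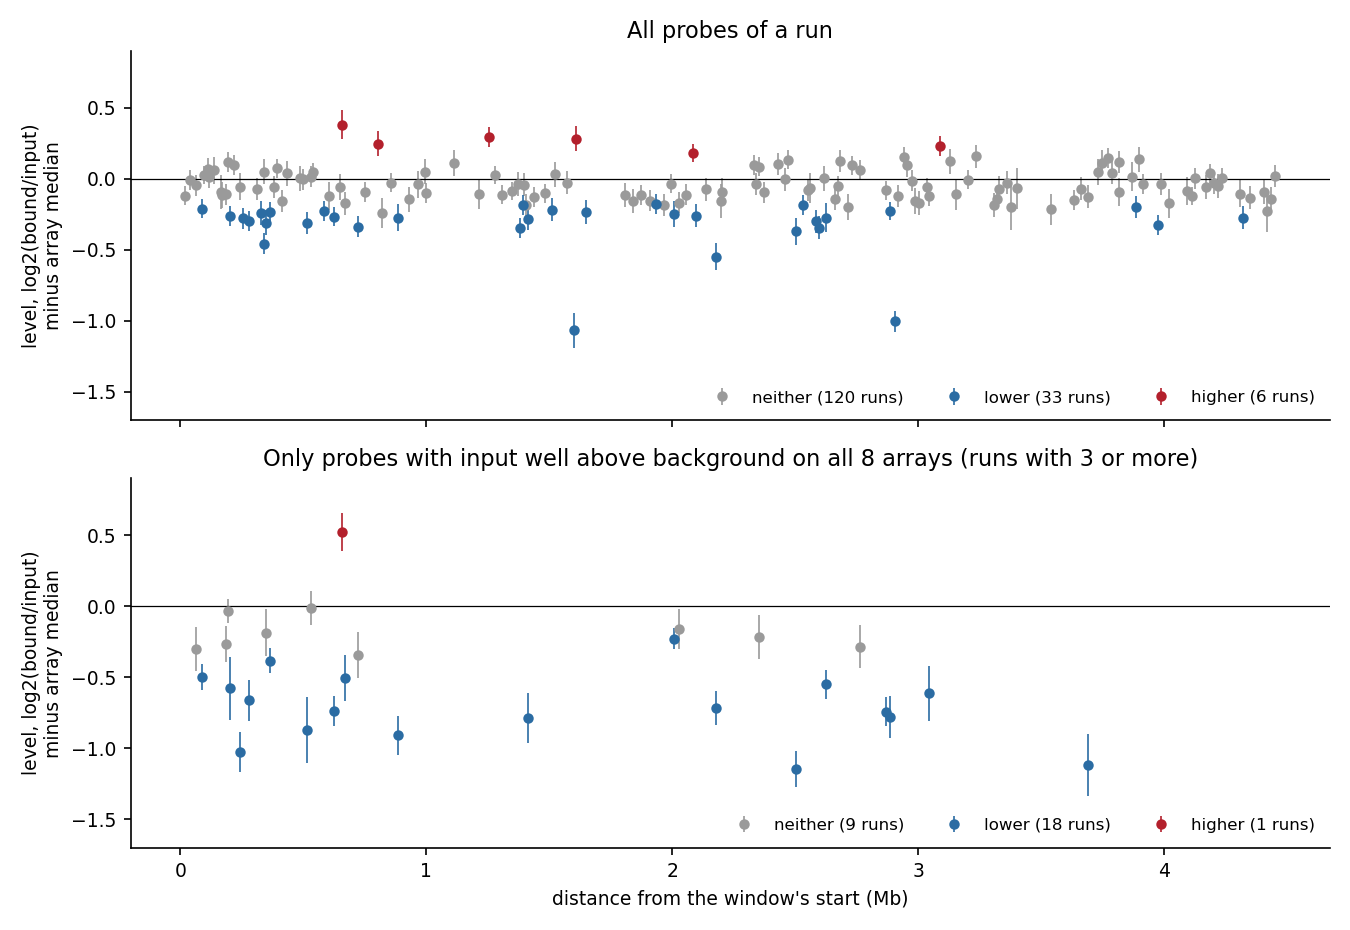
Level of each run (log2 of bound over input minus the array median, vertical axis) against its distance from the window's start (Mb, horizontal axis), with all probes (upper panel) and with bright-input probes alone (lower panel). Points are limma estimates over 8 rats with their SE, coloured by call at an adjusted p of at most 0.05; most of the 159 runs in the upper panel lie near 0, and 27 of the 28 in the lower panel lie under it.

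The 3 lowest runs were bright ones. The run at chr3:71906043-71906475 (8 probes) had levels of -0.84, -1.32, -1.20 and -0.95 in the Ctrl rats, given here and below in slide order. In the PNS rats it had -0.97, -1.06, -0.85 and -0.84. All 8 rats lay well below 0, the mean was -1.004 ± 0.07 (SE) and the adjusted p in limma was 1.64e-06. Input was bright on 68.8% of its spots. The run at chr3:70602393-70602625 held only 3 probes and lay at -0.75, -1.88, -1.62 and -1.04 in Ctrl and at -0.40, -1.05, -0.98 and -0.80 in PNS rats. Its mean of -1.07 ± 0.12 (SE) was the lowest in the window (adjusted p = 3.18e-05 in limma), with 58.3% of input spots bright. The run at chr3:71179567-71180834 (13 probes) was the brightest of these, with 85.6% of input spots well above background. It had -0.53, -0.12, -0.71 and -0.84 in Ctrl and -0.23, -0.51, -0.54 and -0.90 in PNS rats, with a mean of -0.55 ± 0.10 (SE; adjusted p = 0.000491 in limma). The runs that completed the 5 lowest, chr3:69338595-69338983 at -0.46 and chr3:71503413-71504478 at -0.37. Both were below 0 in all 8 rats, and 35.7% and 23.8% of their input spots were bright.

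The highest run was chr3:69657672-69658809, with 14 probes and 64.3% of input spots bright. Its levels were -0.05, 0.47, 0.81 and -0.07 in the Ctrl rats and 0.27, 0.64, 0.51 and 0.44 in the PNS rats, so that 2 Ctrl rats fell just below 0. The mean was 0.38 ± 0.10 (SE; adjusted p = 0.00689 in limma). Its highest probe was the last one, A_45_P02787638 at chr3:69658765-69658809, which is 45 bases long and was bright in both channels on all 8 arrays. That probe read 1.96, 2.04, 1.98 and 1.04 in Ctrl and 0.84, 2.50, 2.45 and 2.32 in PNS rats, whereas the lowest probe of the same run, also bright on 8 arrays, had a level of -0.37. Just 3 of the 219 bright probes had a level above 1 (1.37%, against 9.73% over the array), and 56 had one below -1 (25.6%, against 11.8%). The other 2 above 1 were A_45_P02791509 at chr3:71028742-71028801 (0.76 to 1.17 over the 8 rats) and A_45_P02793550 at chr3:71627597-71627656 (0.76 to 1.27). They were picked out after their values had been seen.

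The next 4 highest runs were dim. At chr3:70253469-70254444 (12 probes) the level was 0.29, at chr3:70610595-70611333 (4 probes) 0.28, at chr3:69804444-69805617 (13 probes) 0.25 and at chr3:72088153-72089336 (20 probes) 0.23. All 4 had an adjusted p of at most 0.0264 in limma and lay above 0 in 7 rats, with C180 the exception at -0.20 to -0.12. The third of them lost its call when C182, C184, C142, C144 or C145 was left out. However, none of their input spots was bright in the first pair and 3.85% and 1.88% were in the others. Neither channel was above background for 54.2%, 53.1%, 42.3% and 43.8% of their probe measurements.

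Levels differed between value tables, and the cause was not tested. The authors' own table of normalized log2 ratios follows the ranks of median signals minus local background and leaves a spot empty where that difference is not positive. In that table, an alternative chosen after the data had been seen, 154 of the 159 runs were lower than the array median and 1 was higher (40.4% and 27.4% over the array). There the levels of all 4 dim runs just named were below 0, from -1.12 to -0.61, while the run at chr3:69657672-69658809 stayed higher. The window median over the 1887 probes with a value on all arrays was -0.80, -0.79, -0.55 and -0.61 in the Ctrl rats and -0.64, -0.35, -0.15 and -0.31 in the PNS rats. With the processed signals used here, all 2503 probes had medians of -0.21, -0.04, 0.16 and 0.10 in Ctrl and 0.14, 0.26, 0.28 and 0.23 in PNS rats. With a loess fit to intensity within each array these shrank to between -0.02 and 0.05. Of these 4 choices, the bright probes and the authors' table placed every rat below 0.

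**Figure D3:**
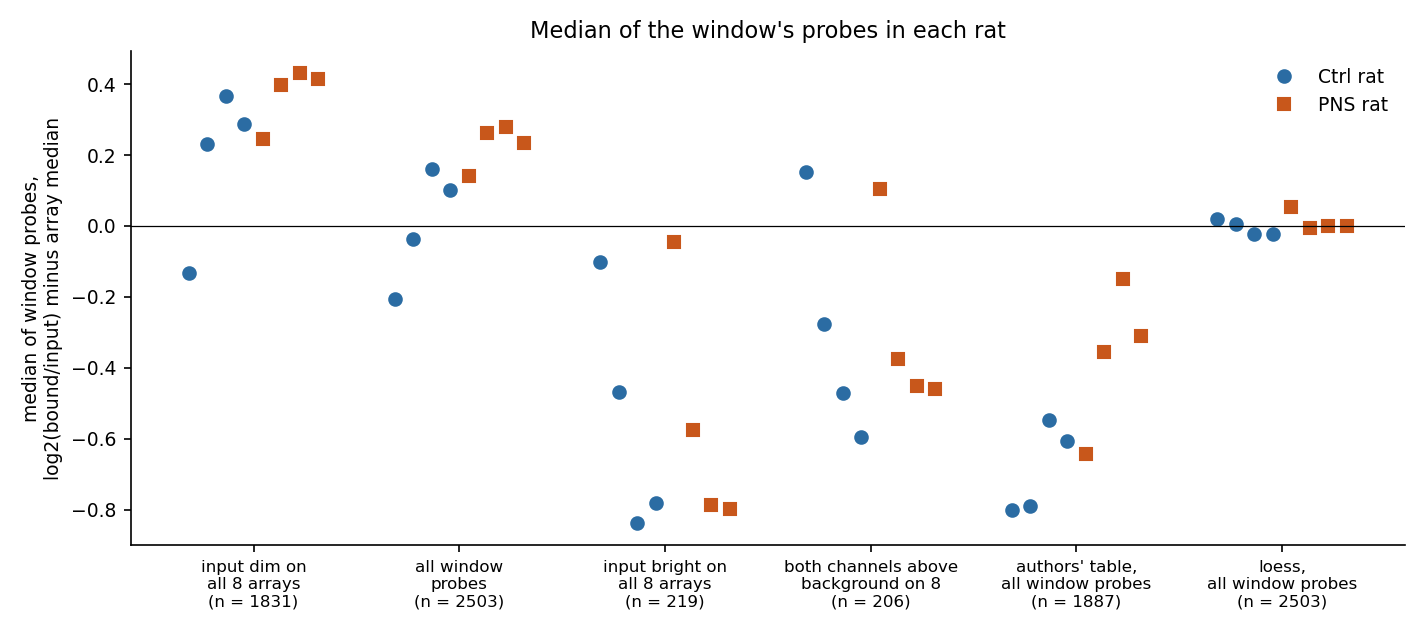
Median level of the window's probes in each rat (log2 of bound over input minus the array median, vertical axis) under 6 choices of probes or of value table, with the number of probes below each. Circles are Ctrl and squares PNS rats; dim probes lie mostly above 0, and bright-input probes and the authors' table lie below 0 in all 8 rats.

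In the 3 runs picked for the widest range, probes differed more than the window's run levels did, which went from -1.07 to 0.38. The widest run, chr3:71597452-71598651 (20 probes), went from -1.96 for its first probe, bright in input on 8 arrays, to 0.50 for a probe bright on none, a range of 2.46. At chr3:69241732-69242953 the range was 2.42 and at chr3:71531092-71532299 it was 2.39, and there too the lowest probe was bright in input on 8 arrays and the highest on none. Neighbouring probes of a run varied together only weakly from rat to rat, with a mean correlation of 0.13 over 2329 pairs, against 0.29 over the array and 0.11 for pairs of 60-base probes elsewhere. The levels of adjacent runs were not related (r = -0.03 over 158 pairs, given as a description), while over all chromosomes the same r was 0.17.

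Levels changed little along the window. In 9 bins of 0.5 Mb the median run level lay between -0.16 (70.5 to 71.0 Mb) and -0.04 (72.5 to 73.0 Mb). Bright input spots were most common in the first bin (21.9%) and made up 10.0 to 10.9% in the last 2. Lower runs made up 8 of 29 runs in the first bin, 7 of 22 in the sixth, 0 of 14 in the seventh and 1 of 16 in the last. At the left edge, the first run inside (chr3:69020955-69022157) had a level of -0.12 ± 0.12 (SD, n = 8) and the nearest run outside, 16486 bp before the window, had -0.18 ± 0.35. At the right edge the last run inside (chr3:73451740-73452857) had 0.02 ± 0.22 and the nearest run outside, 8327 bp beyond the window, had -0.35 ± 0.20.

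The study asked whether prenatal stress left a mark on methylation, so PNS was set against Ctrl. The window as a whole lay higher in PNS rats. The median of its run levels was -0.38, -0.25, -0.01 and -0.07 in the Ctrl rats of slides 1 to 4. In the PNS rats of the same slides it was -0.12, 0.05, 0.13 and 0.04. The groups overlapped, since C141 was lower than C184 and C185. On average Ctrl had -0.18 ± 0.17 and PNS had 0.02 ± 0.11 (SD, n = 4 each), a difference of 0.20, and within slides 1 to 4 the PNS rat was higher by 0.25, 0.30, 0.14 and 0.10. The difference was positive in 152 of 159 runs (95.6%), compared with 50.3% of all runs on the array. A count of runs is not a count of independent events, because all runs share the same 8 arrays.

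PNS rats were also higher in dim runs outside the window. Runs made only of 60-base probes elsewhere had medians of -0.39, -0.17, -0.01 and -0.04 in Ctrl and -0.14, 0.05, 0.12 and 0.08 in PNS rats, and 81.3% of them had a positive difference, with a median of 0.17. In the 72 window runs of this kind the median was 0.24 and 98.6% were positive, and the difference between the sets was not tested. In both sets C180, C182 and C141 had the 3 lowest medians of the 8 rats. Without these 3 arrays the window difference was 0.11 and 84.9% of runs were positive. With the loess fit it was 0.04 and 68.6% (47.9% over the array). Of runs in the authors' table, 91.2% were positive (49.1% over the array), and among the 21 runs of probes above background in both channels 66.7% were (34.7% over the array). Among the 219 bright probes the group means of the medians were -0.55 ± 0.34 in Ctrl and -0.55 ± 0.35 in PNS rats (SD, n = 4). A positive difference was seen in 103 of them (47.0%, against 38.5% of such probes over the array). In the 28 runs with at least 3 bright probes the difference was positive in 13 (46.4%, against 29.4% over the array). The smallest unadjusted p in limma was 0.0707, at chr3:71627270-71628481, which was lower in PNS rats, and 0 runs passed 0.05.

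Run by run, 11 window runs were higher in PNS rats and 0 were lower at an unadjusted p of at most 0.05 in limma (6.92%, against 2.24% higher and 1.8% lower over the array). None passed Benjamini-Hochberg adjustment over all 25615 runs, where every adjusted p was 1.00. The 4 Ctrl and the 4 PNS rats did not overlap in 10 runs, all higher in PNS (6.29%, against 1.83% higher and 1.4% lower over the array). Of runs made only of 60-base probes elsewhere, 8.57% were higher and 0.992% lower at that unadjusted p. Of the 72 such window runs 11.1% were higher. In another chromosome 3 window, 15 to 18 Mb, 7.55% of 53 runs were higher. The groups did not overlap in 3.97% (higher) and 0.541% (lower) of the 60-base runs elsewhere. With the slide as a replicate block 19 window runs were higher and 0 lower, and with the loess fit 2 and 0 (1.26% higher, against 1.46% over the array). The block gave 11.9%, against 2.80% over the array. The count of higher runs also rested on single rats. It was 32 without C141 (20.1%, against 5.55% over the array), 25 without C184 (15.7%, 2.64%) and 23 without C185 (14.5%, 2.89%). It was 5 without C180 (3.14%, 1.98%), 6 without C142 (3.77%, 1.51%), 5 without C144 (3.14%, 1.19%) and 4 without C145 (2.52%, 1.51%).

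The largest of the differences without overlap was at chr3:69329530-69330803 (18 probes). Levels there were -0.75, -0.75, -0.21 and -0.26 in Ctrl and -0.04, -0.09, 0.13 and 0.04 in PNS rats, so that the Ctrl rats of slides 1 and 2 stood lowest. The difference was 0.50 ± 0.16 (SE; unadjusted p = 0.0107 and adjusted p = 1.00 in limma; exact permutation p = 0.0286, two-sided, the smallest that 4 against 4 allow). The run was named because its groups did not overlap, and this alone fixes the permutation p, which therefore adds no support. At chr3:70253469-70254444, the dim run met above among the highest, Ctrl rats had -0.14, 0.04, 0.27 and 0.19 and PNS rats had 0.59, 0.58, 0.31 and 0.49, a difference of 0.40 ± 0.14 (SE). At chr3:72328576-72329693 the difference was 0.39 ± 0.19, with Ctrl at -0.25, -0.82, 0.02 and -0.03 and PNS at 0.06, 0.12, 0.28 and 0.04. Its unadjusted p in limma was 0.0588, so it did not pass 0.05 even before the loess fit. The lowest PNS rat exceeded the highest Ctrl rat by little there, and without C182 the difference was 0.21. At chr3:72318587-72319587 the difference was 0.35 ± 0.14, with -0.56, -0.23, -0.29 and -0.20 in Ctrl and -0.13, 0.03, 0.16 and 0.09 in PNS rats. At chr3:71943702-71944443 it was 0.34 ± 0.15, with 0.03, -0.35, 0.10 and 0.14 in Ctrl and 0.49, 0.24, 0.35 and 0.19 in PNS rats. The groups of the last run were close, and without C182 its difference was 0.23. Bright input spots made up 0 to 20.8% of the spots in these 5 runs. With the loess fit the 5 differences were 0.35, 0.14, 0.25, 0.19 and 0.31 in the order given, and the first alone had an unadjusted p of at most 0.05 in limma. Without the 3 arrays of little spread they were 0.26, 0.23, 0.15, 0.34 and 0.15.

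Single probes gave the same one-sided count. By the first-stage rule of the study, an unadjusted limma p of at most 0.05 with a difference of at least 0.5, 139 window probes were higher in PNS (5.55%, against 2.61% over the array) and 11 were lower (0.439%, against 2.25%). None had an adjusted p of at most 0.2, and the smallest was 0.968. The 150 probes were scattered over 97 runs with at most 4 in any run, and input was bright on none of the arrays for 112 of them and on all 8 for 5. Of the window probes with bright input on no array, 5.73% were higher and 0.382% lower by this rule. Such probes over the whole array gave a similar share of higher ones, 5.43%, and 1.08% lower. Groups did not overlap for 72 probes higher in PNS (2.88%, against 1.54%) and 8 lower (0.32%, against 1.69%). With the loess fit the excess of higher probes was absent, with 52 higher (2.08%, against 2.20% over the array) and 27 lower (1.08%, against 2.33%). With the slide as a block 174 were higher (6.95%, against 3.24%) and 22 lower (0.879%, against 2.91%). Without C144 76 probes were higher (3.04%, against 1.88% over the array). Without C184, C185 and C141 19, 23 and 20 were lower (0.759, 0.919 and 0.799%, against 2.28, 2.58 and 5.37%).

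Among the 219 probes of bright input, 4 were higher (1.83%, against 0.772% of such probes over the array) and 1 was lower (0.457%, against 2.62%). The lower one, A_45_P02793556 at chr3:71628311-71628370, had the largest difference relative to its error among the 10 named probes. It read 0.21, -0.76, -0.49 and -0.59 in Ctrl and -1.75, -2.53, -2.21 and -1.78 in PNS rats. The groups were far apart, by -1.66 ± 0.31 (SE; unadjusted p = 0.000332 and adjusted p = 0.968 in limma), and the PNS rat was lower on each slide, by -1.96, -1.78, -1.72 and -1.19. The bound channel was bright on 4 of the 8 arrays. Of the 18 other probes in its run (chr3:71627270-71628481) only 4 had a negative difference, from -0.71 upward. Input was bright on all 8 arrays for 3 of the 18, with differences of 0.13, -0.55 and 0.42. For the 4 bright probes of the run together, A_45_P02793556 included, the difference was -0.41 ± 0.21 (SE; unadjusted p = 0.0707 in limma). The adjacent probe at chr3:71628280-71628338, which shares 28 bases with A_45_P02793556, is the one of these with the difference of 0.42 (unadjusted p = 0.227 in limma). That run also holds the bright probe at chr3:71627597-71627656 whose level was at least 0.76 in every rat.

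Probe A_45_P02785376 at chr3:69147377-69147435 was the only other named probe of bright input, and it stands by itself as a run of 1 probe. It read -0.71, -1.19, -1.59 and -0.24 in Ctrl and 0.55, 0.04, 0.24 and 0.31 in PNS rats, a difference of 1.22 ± 0.32 (SE; unadjusted p = 0.00386 in limma). Both channels were above background on all 8 arrays. The PNS rat was higher on each slide, by 1.26, 1.23, 1.82 and 0.56. The largest difference of all, 2.76 ± 0.87 (SE) for A_45_P02789385 at chr3:70308590-70308649, was 1.78 without C141. This rat read 4.89, and the other PNS rats 1.07, 0.43 and 1.45, against -1.11, 0.34, -0.95 and -1.47 in Ctrl. Its input was bright on no array, and on no array were both channels above background.

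**Figure D4:**
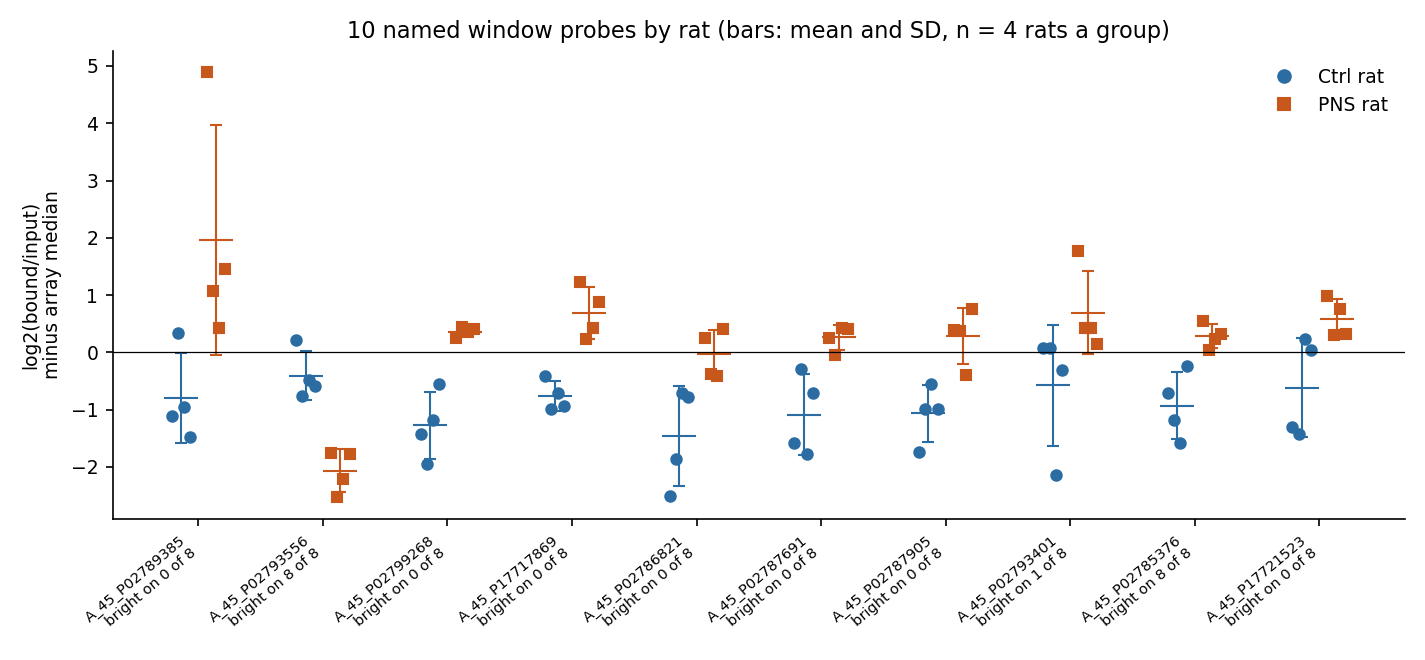
Level of the 10 named probes in each rat (log2 of bound over input minus the array median, vertical axis), with the number of arrays on which input was well above background under each name. Circles are Ctrl and squares PNS rats, bars are the group mean and SD (n = 4); only 2 of the 10 probes were bright on all 8 arrays, and the second probe from the left is the only one lower in PNS rats.

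The remaining 7 named probes were all higher in PNS rats, by 1.20 to 1.64, and were chosen because their groups did not overlap. Input was bright on 1 array for A_45_P02793401 and on none for the other 6, which were A_45_P02799268, A_45_P17717869, A_45_P02786821, A_45_P02787691, A_45_P02787905 and A_45_P17721523. In A_45_P02799268 the 4 PNS values were confined to 0.24 to 0.44, close to the stand-in levels of those arrays, while the Ctrl values ran from -1.96 to -0.55. Neither channel was above background on 3 of its 8 arrays. The 15 runs of 1 or 2 probes, which were not tested as runs, had levels from -1.04 (chr3:70714830-70714919) to 0.36 (chr3:70440402-70440470). Their differences ranged from -0.31 to 1.22 and 13 of the 15 were positive.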

How the data were processed

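The authors hybridized 1 two-colour promoter array for each of 8 rats and read it with Feature Extraction 10.7.3.1. The deposited intensity of a spot is the software's processed signal, after its background and dye steps. A log10 ratio made by the software is also deposited. The authors' table of log2 values, also deposited, has the ranks of median signal minus local background, and a median of -0.53 to -0.55 on every array, so it was centred here.

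From the processed signals, log2 ratios (Cy5 bound over Cy3 input) were computed, spots marked as saturated or non-uniform were dropped, and spots of a probe were averaged. The 375108 probes were quantile-normalized and each array was centred on its median. Probes and run means were fitted over the whole array with limma 3.58.1 (lmFit, eBayes) in R 4.3.3, with Benjamini-Hochberg adjustment. The named runs were the 5 highest and 5 lowest among called runs, the 5 with the largest difference without overlap of the groups, the 3 widest and those at the edges, and the named probes were the 10 largest first-stage differences without overlap. On simulated data with independent noise, 197 of 200 runs shifted by 2 were recovered among 239 calls over 25615 runs. That shift is far larger than any run difference in the window (at most 0.62), so it does not show what could be found there. With no shift, the first-stage rule called 19227 of 375108 simulated probes, while the real data gave 9792 higher and 8426 lower. For levels, 126 of 200 runs shifted by 0.5 were recovered. The window and all rules were chosen with earlier results of these data known. The alternatives are given with their effect below. Normexp was run on median signals, and the study's Bayesian deconvolution and rank-sum promoter test were not used here. Replicate numbers pair nothing, and the slide is known from the file headers.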

Additional observations from a re-analysis of the deposited data

Results flagged for a closer look

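Dixon's test was applied to 68 groups of 4 rats (window medians, detection shares, named runs and named probes), and 2 had a rat far from the other 3, where chance gives about 3.4. The Ctrl rat C182 had 16.7% of window input spots well above background and the other Ctrl rats had 13.0 to 13.6% (gap over range 0.83). For chr3:71597452-71598651, the PNS rat C141 lay at -0.49, with the other PNS rats at -0.03 to 0.01 (gap over range 0.924). One alternative left out the arrays of C180, C182 and C141. It kept only C184 and C185 as Ctrl and C142, C144 and C145 as PNS rats. There chr3:71597452-71598651 was 1 of 3 window runs that passed an adjusted p of 0.2 in limma, with a difference of 0.45 ± 0.12 (SE) and an adjusted p of 0.16. The others were chr3:73310270-73311229 (0.39, adjusted p = 0.171 in limma) and chr3:73349923-73351195 (0.41, adjusted p = 0.154 in limma). Over the array 1447 of 25615 runs passed in that fit, a larger share than the 3 of 159 in the window, and none did with all 8 arrays.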

How the results depend on the processing

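Levels of the 5 lowest runs and of chr3:69657672-69658809 kept their direction and call under all alternatives that gave a value, except that chr3:71503413-71504478 lost its call under 1. The number of runs lower and higher than the array median was 87 and 1 with the software's log ratio (48.4 and 20.8% over the array), 18 and 1 of 28 with bright input probes alone, 11 and 1 of 21 with probes above background in both channels, 154 and 1 in the authors' table, 8 and 32 with the median of a run's probes (33.2 and 25.3%) and 18 and 2 at an adjusted p of at most 0.01 (32.4 and 18.6%). The loess fit gave 14 lower (8.81%, against 30.0% over the array), normexp gave 1 higher (0.629%, against 27.9%), and 28 were higher without the 3 arrays of low spread (17.6%, against 28.9%). The dim runs chr3:70253469-70254444, chr3:70610595-70611333, chr3:69804444-69805617 and chr3:72088153-72089336 turned to -0.0401, -0.0389, -0.0238 and -0.0211 with normexp and to -0.80, -1.12, -0.61 and -0.70 in the authors' table, and the cause was not tested. The mean of the window's medians over rats was -0.50 with bright input probes, -0.31 with both channels above background, -0.63 in the authors' table and 0.11 with the median of a run's probes.

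Runs higher in PNS (unadjusted limma p) numbered 6 with the software's log ratio (3.77%, against 2.00% over the array), 2 with loess (1.26%, 1.46%), 1 with normexp (0.629%, 1.72%), 0 with bright input probes (array 0.357%) or with both channels above background (array 0.655%), 23 without the 3 arrays (14.5%, 7.37%), 18 with an intensity trend (11.3%, 2.46%) and 34 in the authors' table (21.4%, 3.26%). Probes higher and lower are given with their shares in the window and then over the array. Loess gave 52 and 27 (2.08 and 1.08%, against 2.20 and 2.33%). Normexp gave 2 and 0 (0.0799 and 0%, against 0.158 and 0.472%). A fit of bright input probes alone gave 4 and 1 (1.83 and 0.457%, against 1.05 and 3.49%). Both channels above background gave 3 and 0 (1.46 and 0%, against 1.49 and 3.13%). A difference of at least 1 gave 65 and 6 (2.60 and 0.240%, against 1.55 and 0.785%). Without the 3 arrays there were 131 and 27 (5.23 and 1.08%, against 4.61 and 4.95%). The authors' table gave 160 and 20 (8.48 and 1.06%, against 2.73 and 2.54%). Over the alternatives, leaving out rats included, 66 of 96 values of the named run differences kept their side of the unadjusted p, 26 lost it and 4 gained it, and none changed sign. Normexp lowered all 5 to between 0.0483 and 0.14. The window difference was 0.0421 with loess, 0.0501 with normexp and -0.0759 over the 28 runs of bright input probes, where 46.4% of runs were positive. With all probes but without the 3 arrays of low spread, 3 window runs had an adjusted p of at most 0.2 in limma (1447 of 25615 runs over the array). With the slide as a replicate block, 19 runs and 174 probes were higher and 22 probes lower in PNS.

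Leaving out each rat gave 4 to 9 higher and 26 to 35 lower runs by level. It gave 4 to 32 runs higher in PNS, 76 to 179 probes higher and 13 to 23 lower, 0 runs after adjustment, 89.9 to 95.6% of runs with a positive difference, a mean of -0.10 to -0.04 and a difference of 0.13 to 0.25. The small share of bright spots limits all of these values.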
